A study of Mus musculus with 6 samples.

Results

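Proteins that bind bone morphogenetic proteins (BMPs), or that otherwise set how strongly a cell responds to them, were followed in primary mouse renal fibroblasts exposed to Th17 cells. The 9 genes Grem1, Nog, Chrd, Chrdl1, Fst, Fstl1, Bmper, Bambi and Twsg1 were chosen by name as BMP antagonists and modulators. The choice was made with earlier results of these data known. Each gene matched a single row among the 34745 genes of the deposited table. RNA was sequenced from wild-type fibroblasts that had been grown out of digested kidney. One group was fibroblasts alone (3 libraries), without treatment. The other was fibroblasts that shared their medium for 24 h with Th17 cells, the interleukin-17-producing helper T cells, held in an insert with 0.4 μm pores (3 libraries). The Th17 cells had been made from spleen CD4+ T cells with interleukin-1β, interleukin-6, interleukin-23 and an antibody against interferon-γ. The study's methods name Balb/c mice but do not tie them to these cultures, and the sex and age of the mice, and whether replicates were separate animals or separate wells, were not given in the sources used here. The SDs and p-values therefore describe the spread between these libraries, which may be technical.

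BMPs are secreted ligands that assemble type I and type II receptors on the cell surface and signal through phosphorylated Smad1, Smad5 and Smad9. Most of the antagonists act outside the cell, where they hold the ligand away from its receptors, and some also carry the ligand through the tissue and release it. In the kidney the balance of ligand and antagonist shapes the branching of the ureteric bud, and gremlin 1 is known for its high expression in diseased, fibrosing kidney.

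With Th17 cells, Grem1 rose 16.2-fold and Nog 3.77-fold, whereas Chrd and Bmper fell by more than 2-fold and Fstl1, Bambi, Fst and Twsg1 fell by smaller factors. Chrdl1 was listed at 0 in each library of fibroblasts alone and was detected at a low level in each cocultured library. Of the 9 genes, 8 passed the filter on low counts, and 2 of them were higher and 6 lower at an adjusted p below 0.05. Nog, which is 1 of the 2, entered the test only through the group in which it was higher. With at least 10 counts asked of every library, 1 gene was higher. Of all 13088 genes tested, 17.1% were higher and 20.0% lower by the same rule. With a fold change above 2 in addition, 2 of the 8 were higher and 2 lower, beside 3.87% and 7.78% of all genes tested. For each of the 8 the values of the groups did not overlap, which was also so for 50.4% of all genes tested. The median log2 fold change of the 8 was −0.74 and that of all genes tested was 0.0038.

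The windows before the start of Grem1, which rose most, and of Chrd and Bmper, which fell most, are shown because these 3 genes and Nog were the ones that passed the fold limit. The RefSeq promoter sequences used here (build GRCm38.p6) were matched for 5 of the 9 genes, namely Grem1, Chrd, Fstl1, Bmper and Twsg1. Each line gives the 250 bases upstream of that start in the direction of transcription, and capitals mark GGCGCC, a BMP-responsive Smad element that reads the same on both strands. The windows lie at chr2:113758649-113758898 on the minus strand for Grem1, chr16:20732877-20733126 on the plus strand for Chrd and chr9:23222826-23223075 on the plus strand for Bmper.
Grem1: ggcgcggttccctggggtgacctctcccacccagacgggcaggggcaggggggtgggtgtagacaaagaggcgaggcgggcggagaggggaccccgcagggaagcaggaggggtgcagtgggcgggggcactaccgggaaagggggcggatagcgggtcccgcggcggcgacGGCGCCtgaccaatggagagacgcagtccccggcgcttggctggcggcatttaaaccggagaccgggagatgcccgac
Chrd: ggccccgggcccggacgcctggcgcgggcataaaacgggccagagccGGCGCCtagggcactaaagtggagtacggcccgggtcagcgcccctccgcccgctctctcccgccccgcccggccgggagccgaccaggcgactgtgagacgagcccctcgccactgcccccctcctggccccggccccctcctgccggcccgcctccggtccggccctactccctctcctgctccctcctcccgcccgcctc
Bmper: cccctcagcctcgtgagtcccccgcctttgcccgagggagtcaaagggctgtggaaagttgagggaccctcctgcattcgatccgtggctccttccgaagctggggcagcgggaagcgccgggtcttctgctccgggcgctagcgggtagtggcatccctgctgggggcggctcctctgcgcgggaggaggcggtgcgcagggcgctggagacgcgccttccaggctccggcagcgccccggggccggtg

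GGCGCC occurred once in the window of Grem1, with its first base 78 bases before the start, and once in that of Chrd, 203 bases before it. It did not occur in the windows of Bmper, Fstl1 and Twsg1. Among 32851 RefSeq windows of the same length 9.59% held it. The windows shown were rich in G and C, at 72.0% for Grem1, 78.0% for Chrd and 71.6% for Bmper, beside a median of 52.4% over all windows. The AP-1 motif TGANTCA (in 6.75% of all windows), the core of the interferon-stimulated response element, which is GAAA, any 2 bases and GAAA (2.98%), the TATA motif TATAAA (12.4%) and a form of the NF-kB motif with A or T at its sixth base (3.90%) were searched on both strands and were not found in the 5 windows. In a looser form with any sixth base, searched after the data were seen, the NF-kB motif occurred once before Bmper, 188 bases before the start, in none of the other 4 windows and in 7.25% of all windows. GGCGCC thus occurred before a gene that rose and before a gene that fell.

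Depth was similar, with 12050529 to 13209581 counts in a library, and 3 counts, taken as the floor, equalled 0.223 to 0.254 CPM (counts in 1000000, scaled by the trimmed mean of M values, TMM). Fibroblast markers were abundant in each library, with a summed level of 29726 to 31584 CPM for the 9 markers alone and 13403 to 14889 CPM in coculture, most of it from Col1a1 and Col1a2. Singly, 7 of the 9 were lower and 1 higher at an edgeR adjusted p below 0.05, and 3 of those lower fell by more than 2-fold. The higher one was Dcn, at 502 to 508 CPM alone and 1369 to 1460 CPM in coculture. S100a4, at 4.81 to 6.76 and 5.20 to 8.98 CPM, overlapped between the groups. Among 11 T cell markers, Cd3d, Cd2, Il17a, Il17f and Ccr6 had no count in any library. The summed level of the list was 4.27 to 5.53 CPM alone and 2.21 to 2.67 CPM in coculture, most of it from Lck. Within it Lck had 3.80 to 5.37 CPM alone and 1.75 to 2.67 CPM in coculture. Cd3e had 0 to 0.0790 CPM alone and 0 to 0.456 CPM in coculture. Markers of macrophages moved with the groups, since the sum of 8 of them was 47.6 to 49.6 CPM alone and 8.14 to 10.3 CPM in coculture, and Adgre1 fell from 71, 47 and 55 counts to 0 counts. The sum of 5 endothelial markers was 6.56 to 7.27 CPM alone and 1.37 to 1.73 CPM in coculture, with Tie1 and Emcn at 0 throughout. Most of this fall came from Kdr, at 5.04 to 5.85 CPM alone and 0.0785 to 0.152 CPM in coculture. Pecam1, at 0.632 to 1.55 and 1.14 to 1.41 CPM, overlapped between the groups. The sum of 6 epithelial markers was 1.40 to 2.69 CPM alone and 0.837 to 1.18 CPM in coculture. The part of these other cells in the results was not tested, and in bulk RNA fewer cells of a type and less RNA per cell cannot be told apart.

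Grem1 encodes gremlin 1, a secreted antagonist that binds BMP2, BMP4 and BMP7 (ENSMUSG00000074934, chromosome 2, 113746164 to 113758646 on mm10, protein-coding). Fibroblasts alone had 1943, 1908 and 1573 counts and the cocultured fibroblasts 30456, 27151 and 34668. Every cocultured library thus held more than 10 times the counts of any library of fibroblasts alone. In FPKM, which divides counts by gene length and library size, the level was 35.5, 35.5 and 31.5 alone and 558, 522 and 654 in coculture. The log2 fold change was 4.02 (95% interval 3.79 to 4.24, edgeR quasi-likelihood test, adjusted p = 2.08e-08), the 34th highest among the genes tested. Ranked by FPKM within each library, Grem1 moved from between places 1121 and 1316 to between places 44 and 56 of the whole table.

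Nog encodes noggin, a secreted antagonist that covers the receptor-binding surfaces of BMPs (ENSMUSG00000048616, chromosome 11, 89300638 to 89302332). It had 15, 17 and 8 counts in fibroblasts alone and 46, 59 and 54 counts after coculture. The groups were apart although the counts were low, and fibroblasts alone replicate 3 was the lowest library. The log2 fold change was 1.91 (95% interval 1.27 to 2.56, edgeR adjusted p = 0.000709). In FPKM the level was 0.612 ± 0.198 alone and 2.44 ± 0.359 in coculture (SD, n = 3 libraries each), so that with coculture it stayed far below Grem1. The filter asks for its minimum of 0.777 CPM in 3 libraries, and Nog reached it in 2 libraries alone and in 3 cocultured, so its entry into the test rested on the group in which it was higher. Without the filter its adjusted p was 0.000186.

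**Figure D1:**
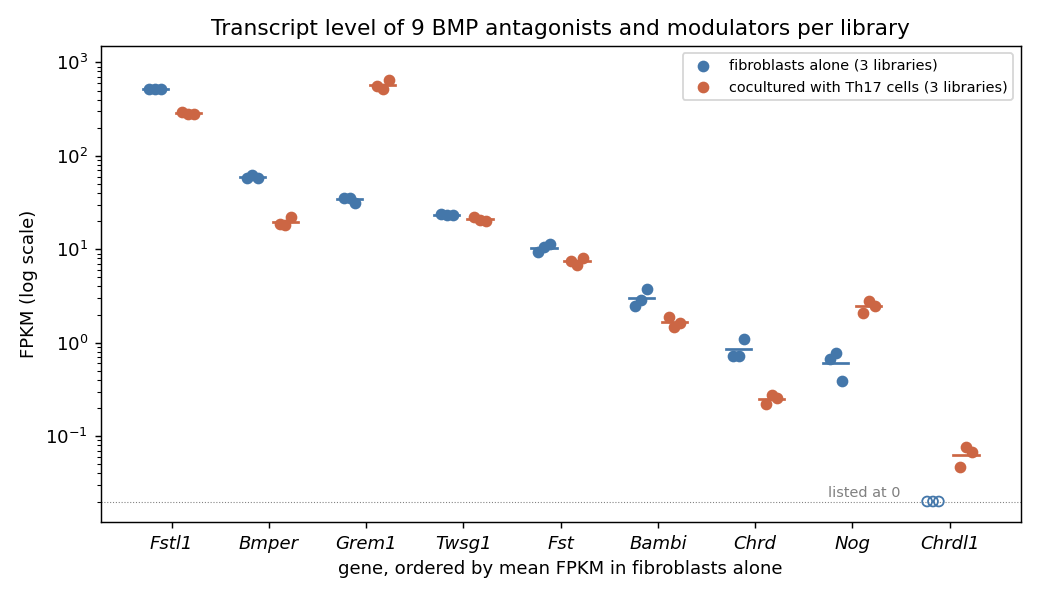
FPKM of the 9 genes on a log axis, with a point per library and a line at the mean of the 3 libraries, for fibroblasts alone and for fibroblasts cocultured with Th17 cells; open points mark libraries in which a gene was listed at 0. Grem1 lies at 31.5 to 35.5 alone and at 522 to 654 in coculture, Nog and Chrdl1 are also higher in coculture, and the other 6 genes are lower.

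The genes of the chordin family and of Bmper share cysteine-rich von Willebrand type C domains that grip the ligand. Chrd encodes chordin, which blocks BMPs until tolloid proteases cut it (ENSMUSG00000006958, chromosome 16, 20733127 to 20742384). It had 83, 81 and 113 counts in fibroblasts alone and 25, 30 and 28 in coculture. All cocultured counts lay well below the lowest count alone. Its log2 fold change was −1.81 (95% interval −2.33 to −1.30, edgeR adjusted p = 0.000261). Chrd overlaps Thpo on the opposite strand, and no source says that counting respected strand, so reads of the pair cannot be told apart.

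Chrdl1 encodes chordin-like 1, another secreted antagonist (ENSMUSG00000031283, chromosome X, 143285674 to 143394262). No count was seen in any library of fibroblasts alone, and 7, 11 and 10 counts were seen with Th17 cells. The gene did not pass the filter. Its mean cocultured level of 0.715 ± 0.176 CPM (SD, n = 3) was 2.82 times the largest level that 3 counts in a library alone would give. The lowest cocultured library had 0.520 CPM. When no filter was used the edgeR adjusted p was 0.00262, and the gene entered that test only through its cocultured counts. At 0.0463 to 0.0763 FPKM in coculture, Chrdl1 was the lowest of the 9 genes, and depth limits what can be said of its size.

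Bmper encodes BMP-binding endothelial regulator, which can hinder or promote BMP signalling depending on its amount (ENSMUSG00000031963, chromosome 9, 23223076 to 23485202). The counts were 2933, 3042 and 2677 alone and 921, 860 and 1061 with Th17 cells. The fall was 3.20-fold and was far larger than the spread within either group, with a log2 fold change of −1.68 (95% interval −1.86 to −1.50, edgeR adjusted p = 5.26e-07). By FPKM, Bmper was the second most abundant of the 9 genes in fibroblasts alone, at 59.7 ± 1.95, and the fourth in coculture, at 19.5 ± 2.10 (SD, n = 3 libraries each).

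Fst and Fstl1 share a follistatin domain. Fst encodes follistatin, which neutralises activins and, less tightly, some BMPs (ENSMUSG00000021765, chromosome 13, 114452262 to 114458730). Its counts were 288, 322 and 320 in fibroblasts alone and 229, 198 and 239 in coculture. The groups did not overlap, but the change was modest, at a log2 fold change of −0.56 (95% interval −0.81 to −0.30, edgeR adjusted p = 0.00400). Fst overlaps the antisense gene Gm47040, with the same uncertainty as for Chrd.

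Fstl1 encodes follistatin-like 1, a secreted glycoprotein that binds BMP4 (ENSMUSG00000022816, chromosome 16, 37776873 to 37836514). It was the most abundant of the 9 genes in fibroblasts alone, where it was the 55th to 58th gene of the table by FPKM. The counts were 42010, 41489 and 38492 alone and 23907, 21651 and 21855 with Th17 cells. The level in FPKM fell from 521 ± 1.93 to 286 ± 9.42 (SD, n = 3 libraries each), a log2 fold change of −0.93 (95% interval −1.04 to −0.82, edgeR adjusted p = 9.94e-07). In coculture Fstl1 was still between places 96 and 112 of the table, and in each of these libraries its FPKM was below that of Grem1.

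Bambi encodes a receptor-like membrane protein without a kinase domain, which dampens signalling by BMP, activin and TGF-β receptors (ENSMUSG00000024232, chromosome 18, 3507957 to 3516404). It is the only one of the 9 products that is not secreted. The counts were 164, 186 and 231 alone and 126, 94 and 104 in coculture. The lowest library alone exceeded the highest cocultured one, and the log2 fold change was −0.92 (95% interval −1.33 to −0.52, edgeR adjusted p = 0.00335).

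Twsg1 encodes twisted gastrulation, which binds BMPs and chordin and can act in either direction (ENSMUSG00000024098, chromosome 17, 65923066 to 65951187). It changed least. The counts were 1289, 1212 and 1143 alone and 1191, 1052 and 1046 in coculture, and these raw counts overlap between the groups while the scaled levels of 95.7 to 100 and 79.6 to 88.5 CPM do not. The log2 fold change was −0.22 (95% interval −0.37 to −0.07, edgeR adjusted p = 0.0282). The call was lost with library size as the only scaling (adjusted p = 0.0866), with DESeq2 (0.0539), with limma on FPKM and when any library other than cocultured replicate 1 was left out (adjusted p from 0.0508 to 0.0854).

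**Figure D2:**
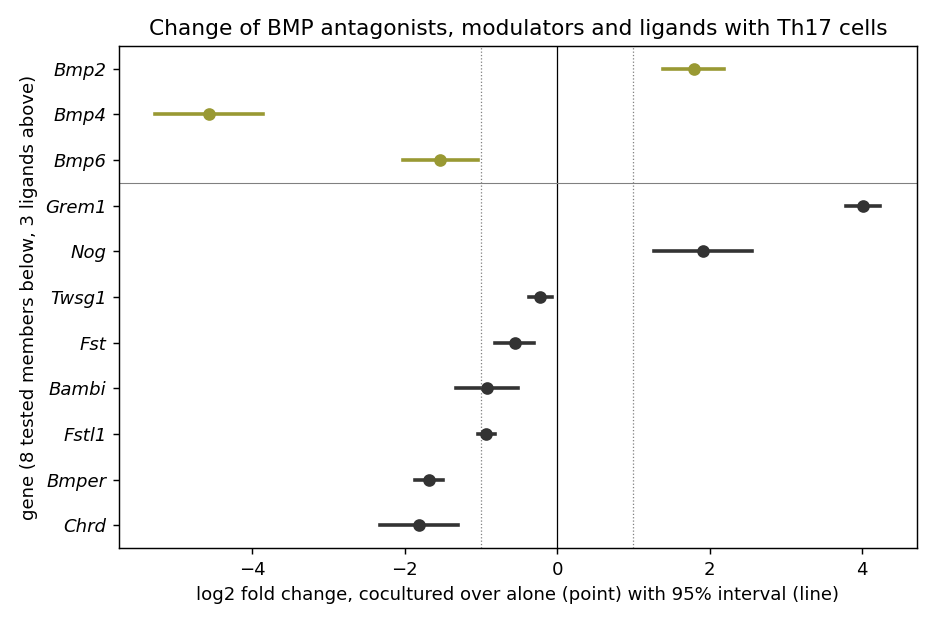
Log2 fold change of cocultured over lone fibroblasts for the 8 genes tested (dark) and for the ligands Bmp2, Bmp4 and Bmp6 (olive), each a point with its 95% interval; dotted lines mark a change of 2-fold. Grem1 at 4.02 and Nog at 1.91 lie to the right, and the other 6 genes lie between −1.81 for Chrd and −0.22 for Twsg1.

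The 7 tests other than that of Twsg1 kept direction and call under every alternative in which the gene was tested. The choice of scale mattered for low genes. With limma on log2(FPKM + 1) the log2 value was 1.10 for Nog, −0.56 for Chrd and −0.59 for Bambi, because a pseudocount of 1 is large beside their FPKM. Among the changes of all genes tested, that of Grem1 was far above the median of 0.0038.

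**Figure D3:**
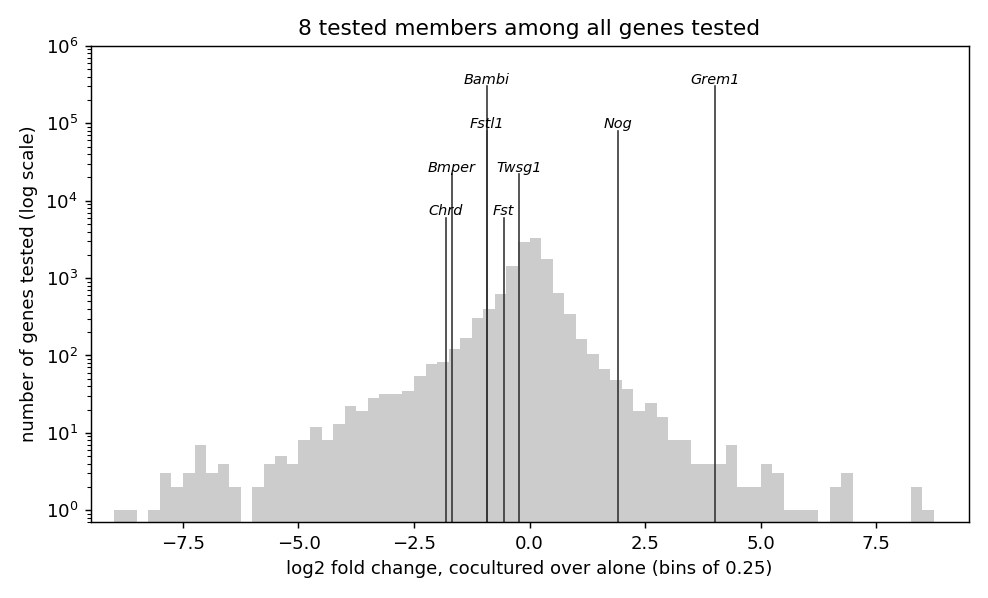
Number of genes tested (log axis) by log2 fold change in bins of 0.25, with lines at the 8 members that were tested. Grem1 at 4.02 is in the sparse upper tail, and Fstl1 and Bambi nearly coincide at −0.93 and −0.92.

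The order of the genes by level changed with coculture. Per length, in FPKM, the order in fibroblasts alone was Fstl1, Bmper, Grem1, Twsg1, Fst, Bambi, Chrd, Nog and Chrdl1, and of these neighbours Chrd (0.726 to 1.09) and Nog (0.392 to 0.774) overlapped. In coculture the order was Grem1, Fstl1, Twsg1, Bmper, Fst, Nog, Bambi, Chrd and Chrdl1, and Twsg1 (20.2 to 22.4) overlapped with Bmper (18.1 to 21.9). The other neighbours in both orders did not overlap between libraries.

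Grem1 came to dominate the pool of these transcripts. The 8 secreted products together had 647, 655 and 647 FPKM in fibroblasts alone and 905, 852 and 986 FPKM in coculture, so the sum was higher in each cocultured library. Grem1 made up 5.25% ± 0.340 of that sum alone and 63.1% ± 2.83 in coculture (SD, n = 3 libraries each). Without Grem1 the sum went the other way, from 616 ± 3.83 to 336 ± 9.23 FPKM. When Fstl1 and Twsg1 were also set aside, since Fstl1 held most of the sum alone and Twsg1 can act in either direction, the remaining 6 genes, Bmper among them although it too can act in either direction, had 106 ± 3.47 FPKM alone and 608 ± 70.7 FPKM in coculture, of which Grem1 held 32.3% ± 1.64 and 95.1% ± 0.173. These sums are descriptions of transcript level and were given no test.

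**Figure D4:**
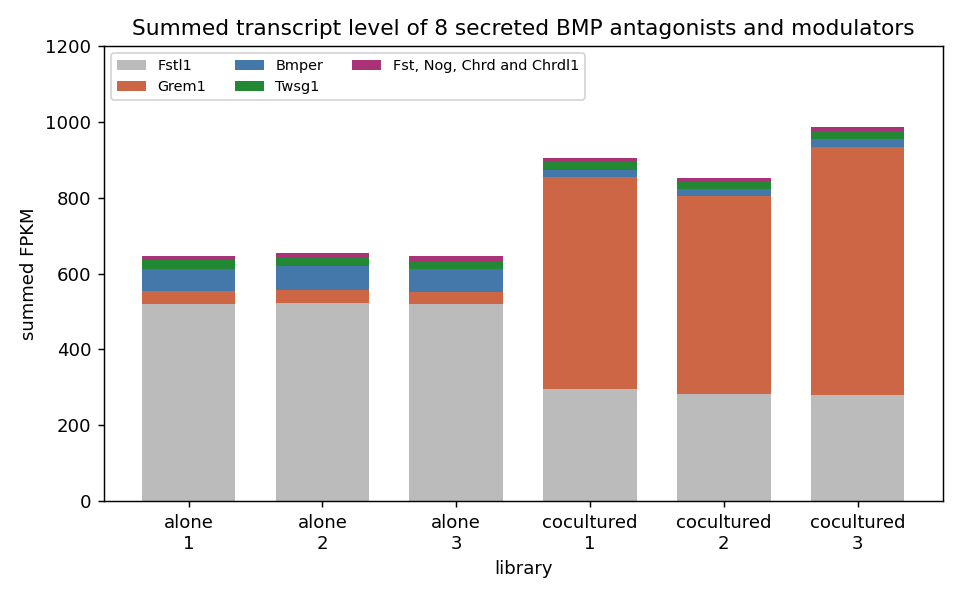
Summed FPKM of the 8 secreted genes in each of the 6 libraries, stacked by gene, with Fst, Nog, Chrd and Chrdl1 drawn together. Bars reach 647 to 655 in fibroblasts alone, mostly Fstl1, and 852 to 986 in coculture, where Grem1 is the largest segment.

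Among the ligands these proteins bind, Bmp2 was higher and Bmp4 and Bmp6 were lower in coculture, while their sum overlapped between the groups. Bmp2, which is itself bound by gremlin 1 and noggin, had 1.20 ± 0.0995 FPKM in fibroblasts alone and 4.36 ± 0.870 FPKM in coculture (SD, n = 3 libraries each). The FPKM of Bmp4, another ligand of both antagonists, was 2.21 ± 0.198 and 0.0940 ± 0.0595, and that of Bmp6 was 2.40 ± 0.342 and 0.864 ± 0.173. The cocultured level of Bmp4 rests on 8, 2 and 4 counts, near the floor. Bmp5 had no count in any library and Bmp7 had 1 count in a single library. The summed FPKM of these 5 ligands was 5.36, 6.02 and 6.06 alone and 4.45, 5.09 and 6.42 in coculture, with no separation of the groups. Within it the share of Bmp2 was 20.8% ± 2.69 alone and 81.8% ± 0.882 in coculture.

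Relative to the ligands, the transcripts of the 6 genes, Grem1 included, were more abundant with Th17 cells, whereas the same result for all 8 depended on which ligands were counted. The ratio of the 6 antagonists to the 5 ligands was 18.2 ± 1.28 in fibroblasts alone (SD, n = 3 libraries) and 132, 108 and 107 in coculture, and that of the 8 secreted genes was 121, 109 and 107 alone and 204, 167 and 153 in coculture. For both ratios each cocultured library was above each library alone. The direction rested on Grem1, since without it the ratio of the 6 was 12.3 alone and 5.65 in coculture, and that of the 8 was 106 and 64.8. Most of the 6-gene sum without Grem1 was Bmper, and without both genes the ratio was 2.05 ± 0.0641 alone and 1.94 ± 0.258 in coculture (SD, n = 3 libraries each), with overlapping groups. For the 8 genes the direction also rested on Bmp4, since without this ligand the ratio was 194, 171 and 178 alone and 211, 169 and 155 in coculture, and the groups overlapped. For the 6 genes it was 29.4 and 118 without Bmp4. Grem1 alone had 28.6 ± 3.89 times the FPKM of Bmp2 in fibroblasts alone and 135 ± 18.0 times in coculture (SD, n = 3 libraries each).

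Of 12 further antagonists and inhibitors of BMPs, 6 were tested, and 3 were higher and 2 lower at an adjusted p below 0.05, with a median log2 fold change of 0.37. Dand5, a secreted antagonist of the DAN family, to which gremlin 1 also belongs, rose from 20, 24 and 17 to 32, 44 and 36 counts (log2 fold change 0.80, edgeR adjusted p = 0.0345). Kcp, which carries many chordin-like repeats, fell from 87, 84 and 76 to 29, 30 and 47 counts (−1.29, edgeR adjusted p = 0.00138), and Fstl3, a relative of follistatin, fell by 0.75 on the log2 scale (edgeR adjusted p = 6.36e-05). None of the 3 that rose passed the fold limit of 2. Beside this list and those below, 17.1% of all genes tested were higher and 20.0% lower, with a median of 0.0038. No list was tested as a set.

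Of 9 chordin proteases, scaffolds and BMP co-receptors, 7 were tested, with 1 higher, 4 lower and a median of −0.28. Tll1, a tolloid-like protease that cuts chordin, was the higher one (log2 fold change 0.77, edgeR adjusted p = 0.00118). Olfml3, a secreted scaffold that brings chordin and its protease together, fell from 1052, 1050 and 934 counts to 259, 222 and 187 (−2.26, edgeR adjusted p = 5.37e-07). Eng, the co-receptor endoglin, fell by 0.53 on the log2 scale (edgeR adjusted p = 0.000573). Among the genes named, Chrd and Olfml3 were thus lower and Tll1 was higher, with the uncertainty of strand given above for Chrd. The list also holds the chordin proteases Bmp1 and Tll2, which are not reported singly. Any effect on the amount or cutting of chordin was not tested.

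Of 18 ligands of BMP and activin type, 7 were tested, with 3 higher and 3 lower. Bmp2 had a log2 fold change of 1.79 (edgeR adjusted p = 5.43e-05) and Gdf11, a ligand that follistatin binds, of 1.34 (edgeR adjusted p = 2.06e-06). Bmp4 and Bmp6 were the lowest, at −4.57 (edgeR adjusted p = 4.71e-06) and −1.53 (edgeR adjusted p = 0.000554). Bmp4 had 103, 108 and 112 counts alone and 8, 2 and 4 in coculture. The cocultured counts lie near the floor of 3 counts, so the size of its fall is uncertain. Of 7 receptors, 6 were tested, and 2 were higher and 1 lower, all by less than 2-fold, with Acvr2a at 0.64 (edgeR adjusted p = 0.00037), Bmpr1b at 0.59 (edgeR adjusted p = 0.00782) and Acvrl1 at −0.75 (edgeR adjusted p = 0.0318). Acvrl1 had 526, 290 and 298 counts alone and 209, 193 and 292 in coculture, so that 1 library alone stood well above the others. Of 12 target genes of BMP signalling, 9 were tested, and 4 were higher and 0 lower, with a median of 0.53. Among all genes tested 17.1% were higher and 20.0% lower. Smad9 was the highest, at 1.70 (edgeR adjusted p = 0.000312), followed by Smad7, an inhibitor made in response to the signal, at 0.66 (edgeR adjusted p = 0.00142). The counts of Smad9 were low, at 20, 22 and 19 alone and 79, 74 and 56 in coculture. Only 1 target was higher by more than 2-fold. The remaining 5 targets did not pass the test. The Id genes, which are also in this list, are not reported singly, and the activity of BMP signalling was not tested here.

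The genes whose profiles over the 6 libraries lay nearest to those of Grem1 and Bmper were looked up as a description, by the Euclidean distance of mean-centred log2 CPM among 9739 other genes with a mean of at least 100 counts. Nearest to Grem1 were Il13ra2 (distance 0.206), Gm2115 (0.333), Dio2 (0.402), Upp1 (0.727) and Cd53 (0.796), with log2 fold changes from 3.40 to 4.26. Nearest to Bmper were Usp18 (0.0693), Isg15 (0.121), Fxyd6 (0.162), Ifi204 (0.164) and Ccl5 (0.168), with log2 fold changes from −1.78 to −1.63. Usp18, Isg15, Ifi204 and Ccl5 are known as genes that interferon induces. With only 2 groups many genes are alike in this sense, and 799 genes had a Pearson correlation with Grem1 of at least 0.95. For Bmper it was 997 genes.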

How the data were processed

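Reads were filtered with Seqtk, mapped to mm10 by HISAT2 2.0.4 and counted per gene through StringTie 1.3.3b, according to the study's methods and the submitters' processing notes, and the authors deposited raw counts and FPKM values for each gene and library. Use of strand and the handling of fragments that fit several genes were not stated. Samples were grouped by their titles and columns were matched by their descriptions. The counts were analysed with edgeR 4.0.16 in R 4.3.3, the package the study used, by its quasi-likelihood test (glmQLFit, glmQLFTest) after filterByExpr (minimum count 10) and TMM scaling. P-values were adjusted by the Benjamini-Hochberg method over all 13088 genes tested. The threshold for a rise or fall was an adjusted p of 0.05, and genes past a fold change of 2 were counted separately. Intervals of 95% use the SE (the log2 fold change over the square root of F) and the t distribution of the fit. FPKM was used wherever levels of different genes were compared. No molecular identifiers were stated, so floors cover counting error only. The 9 genes, the pathway lists and the tests were chosen with earlier results of these data known. Named outside the 9 were the 2 highest and 2 lowest genes of each pathway list that passed the test (1 of them is not reported here), the 5 nearest profiles, and Bmp2, Bmp4 and the other ligands in the sum. Alternatives were DESeq2 1.42.0, limma 3.58.1 on log2(FPKM + 1) and log2(FPKM + 0.1), other scalings and filters, a replicate block, and leaving out each library. The edgeR fit was tested on simulated data. Overlapping genes were read from GENCODE M21 (GRCm38), and promoter windows from RefSeq on GRCm38.p6. Python 3.11.15 and matplotlib 3.10.9 were used for tables and figures.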

Additional observations from a re-analysis of the deposited data

How the results depend on the processing

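Over 15 alternatives (14 for Nog, which did not enter with at least 10 counts in every library), the log2 fold change ranged from 3.93 to 4.08 for Grem1, 1.10 to 2.12 for Nog, −1.91 to −0.56 for Chrd, −1.76 to −1.57 for Bmper, −0.96 to −0.86 for Fstl1, −1.06 to −0.59 for Bambi and −0.63 to −0.44 for Fst, all with an adjusted p below 0.05. Twsg1 lost its call under 9 of 15, with −0.16 for library size only, −0.22 for DESeq2, −0.15 for limma on log2(FPKM + 1), −0.16 for log2(FPKM + 0.1) and for 5 of the 6 libraries left out in turn, and the cause was not tested. Over all 6 of these its value ran from −0.26, where the call was kept without cocultured replicate 1, to −0.19. With at least 10 counts in every library 1 of the 9 genes was higher, since Nog was not tested. It was 3 of the 9 with no filter and without any library alone or cocultured replicate 1, where Chrdl1 was tested and called (edgeR adjusted p from 0.00262 to 0.0103). In each of these settings Chrdl1 entered the test only through its cocultured counts, the group in which it was higher. Limma on log2(FPKM + 1) called 626 genes with a fold change above 2, beside 1524. Library size only made 2916 genes higher and 2280 lower, beside 2244 and 2612, and shifted the median of all genes to 0.067.

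The replicate number as a block gave 4.01 for Grem1 and 1.93 for Nog and changed no call among the 8 genes. Same-numbered libraries did not deviate together (correlations of 0.0157, −0.0256 and −0.0036), so the numbers were not treated as pairs. Scaling cancels in the ratios to ligands. Without Bmp4 the ratio was 29.4 alone and 118 in coculture for the 6 antagonists, and 181 and 178 for the 8 secreted genes, where the rise was lost. Without Grem1 that of the 6 was 12.3 alone and 5.65 in coculture, and that of the 8 was 106 and 64.8. In alternatives chosen after seeing the data, the ratio of the 6 was 7.95 and 112 without Bmper, and 2.05 and 1.94 without Grem1 and Bmper. By Pearson correlation 1 of the 5 nearest genes was shared for Grem1 and 1 for Bmper. Low counts limit Chrdl1 and Nog most.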
